A study of Mus musculus with 14 samples.

Results

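The 10 genes described here carry the first steps of innate immune sensing in the liver: the receptors Tlr2, Tlr4, Cd14 and Clec4e, the inflammasome parts Nlrp3 and Casp1, the ligand Il1b and its antagonist Il1rn, and the products Tnf and Acod1. They were taken by symbol from the 45706 genes of the deposited count table. Each symbol had 1 entry, and all 10 passed the filter on low counts. The libraries came from livers of male C57BL6/J mice that were 8 weeks old at the start. The mice were fed a MASH diet or standard chow for 16 weeks. MASH stands for metabolic dysfunction-associated steatohepatitis, in which a fatty liver becomes inflamed, and the diet is a model of it. Mice on that diet then received C18:1-leucine, C18:1 or vehicle for 6 more weeks while the diet went on. C18:1 is a fatty acid with a single double bond, and in C18:1-leucine it is coupled to the amino acid leucine.

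By the titles, MASH OAL (taken as C18:1-leucine) held 3 libraries, MASH OA (taken as C18:1) 4, MASH 3 and CD (chow) 4. The sources used here give neither doses nor whether the MASH mice received the vehicle. A treatment time is recorded here only for MASH OAL and MASH OA, so age and time on the diet may differ from the other groups. The labels do not say that each library came from a separate mouse, so p-values measure only the spread between these libraries, which may be partly technical. Total counts ran from 33821874 to 51107248 per library. The treatment tag disagreed with the title for 2 libraries: MASH OA replicate 1 is tagged as MASH and MASH OAL replicate 1 as C18:1. The titles were followed, and each comparison that includes these libraries is also summarised without them. Several libraries stood apart in markers of other cells. The 11 neutrophil markers summed to 69.1 CPM (counts scaled to library size) in MASH OAL replicate 1 and to at most 31.2 CPM elsewhere, and pancreas markers were high in MASH OAL replicate 2 and CD replicate 2.

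Toll-like receptors recognise microbial molecules and products of damaged cells, and in the liver they are carried above all by Kupffer cells (the resident macrophages) and by macrophages recruited from the blood. Their signal runs through MyD88 and NF-κB and switches on genes such as Tnf, Il1b and Acod1. NLRP3 then assembles with an adaptor and caspase-1, which cuts the IL-1β precursor into its active form. That step acts on protein and is not seen in RNA. The IL-1 receptor antagonist encoded by Il1rn binds the same receptor as IL-1β without passing on a signal.

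The start-site regions of genes that changed are printed to show the DNA that precedes them, with bases that match a searched motif in capitals. RefSeq tables for GRCm38.p6 held 11 such entries for 8 of the 10 genes, each running from 250 bases before to 50 bases after a start site, and none for Tlr4 and Cd14. The 6 shown belong to Il1rn (chr2:24336610-24336909, plus strand), Tlr2 (chr3:83841559-83841858, minus strand), Acod1 (chr14:103046762-103047061, plus strand), Tnf (chr17:35201958-35202257, minus strand), Clec4e (chr6:123289822-123290121, minus strand) and Nlrp3 (chr11:59541319-59541618, plus strand, the first of its entries). Each reads 5′ to 3′ on the strand of its gene.
Il1rn: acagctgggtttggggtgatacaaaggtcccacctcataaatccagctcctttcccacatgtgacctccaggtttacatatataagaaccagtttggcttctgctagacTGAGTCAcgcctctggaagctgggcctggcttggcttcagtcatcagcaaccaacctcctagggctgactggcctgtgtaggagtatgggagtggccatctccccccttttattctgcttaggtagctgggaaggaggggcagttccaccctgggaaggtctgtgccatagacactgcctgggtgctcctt
Tlr2: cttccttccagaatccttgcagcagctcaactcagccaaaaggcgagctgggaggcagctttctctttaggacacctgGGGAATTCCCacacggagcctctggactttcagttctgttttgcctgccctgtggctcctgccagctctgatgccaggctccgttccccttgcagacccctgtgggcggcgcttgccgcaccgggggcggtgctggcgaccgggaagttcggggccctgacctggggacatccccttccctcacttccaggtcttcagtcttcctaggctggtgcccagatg
Acod1: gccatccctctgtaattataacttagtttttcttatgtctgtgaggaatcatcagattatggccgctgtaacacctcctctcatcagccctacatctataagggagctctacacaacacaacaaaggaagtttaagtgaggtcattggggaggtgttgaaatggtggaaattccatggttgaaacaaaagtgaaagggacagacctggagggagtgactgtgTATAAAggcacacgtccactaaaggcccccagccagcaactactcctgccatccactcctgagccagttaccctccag
Tnf: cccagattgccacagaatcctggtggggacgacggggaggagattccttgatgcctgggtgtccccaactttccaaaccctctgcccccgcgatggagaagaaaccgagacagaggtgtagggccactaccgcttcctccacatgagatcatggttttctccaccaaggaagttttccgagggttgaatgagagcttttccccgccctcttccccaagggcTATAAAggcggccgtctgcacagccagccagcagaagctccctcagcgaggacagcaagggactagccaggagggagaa
Clec4e: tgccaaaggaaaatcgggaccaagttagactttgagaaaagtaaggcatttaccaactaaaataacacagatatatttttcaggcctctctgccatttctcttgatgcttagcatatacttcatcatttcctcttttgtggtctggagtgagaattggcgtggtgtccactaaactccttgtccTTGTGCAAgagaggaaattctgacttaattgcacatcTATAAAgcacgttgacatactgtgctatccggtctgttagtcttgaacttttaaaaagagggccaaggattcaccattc
Nlrp3: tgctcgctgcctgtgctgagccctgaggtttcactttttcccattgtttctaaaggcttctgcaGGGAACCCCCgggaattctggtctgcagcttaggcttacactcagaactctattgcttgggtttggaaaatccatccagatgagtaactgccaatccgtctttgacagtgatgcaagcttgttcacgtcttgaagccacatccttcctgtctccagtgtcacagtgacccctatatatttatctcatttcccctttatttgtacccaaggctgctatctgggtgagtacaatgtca

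Clec4e, Il1b, Tnf and Acod1 held the TATA box letters TATAAA upstream of the start, beginning 28 to 31 bases before it. All 4 matches read on the strand of the gene, and 7.69% of 32851 promoter entries held the letters on that strand before the start. Another start-site entry of Il1rn, not printed, held them on the opposite strand after the start, and 13.6% of entries held them anywhere on either strand. Tlr2 and Nlrp3 held a match to the NF-κB consensus, found in 5.8% of entries. It began 172 bases before the start in Tlr2 and 186 bases before it in Nlrp3. Il1rn held TGAGTCA, a match to the AP-1 motif TGANTCA, which 7.81% of entries held. The C/EBP motif TTGCNNAA, held by 10.8% of entries, matched on the opposite strand of Clec4e and reads TTGTGCAA as printed. The PU.1 core GAGGAAGT (3.2% of entries) and the PPAR-type direct repeat DR1 (0.0396% of entries) were not among the letters of any of these windows. Both strands were searched, and a match is a description of letters only.

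MASH livers were compared with CD livers to ask what the diet did to these genes. RNA of 9 of the 10 genes rose, by 0.84 to 3.49 on the log2 scale, and Il1b was the exception. By edgeR's quasi-likelihood test at an adjusted p under 0.05, 20.4% of the 15674 tested genes rose in this comparison. The median log2 fold change was 1.37 over the 10 genes and 0.01 over all tested genes. For the same 9 genes every MASH library lay above every CD library, which held for 22.5% of tested genes. More cells of a type and more RNA per cell cannot be told apart in whole liver. The 5 macrophage-associated markers (Adgre1, Csf1r, Cd68, Lyz2 and Ptprc) all rose as well. Of these Ptprc is carried by all leukocytes and Lyz2 also by neutrophils and monocytes. They summed to 408 to 471 CPM in MASH libraries against 120 to 197 CPM in CD libraries. Of 9 markers of recruited and lipid-associated macrophages 8 rose, of 7 Kupffer cell markers 1 rose, and of 9 tested neutrophil markers 1 rose. Of the dendritic cell markers 3 of 7 rose, of the T and NK cell markers 3 of 7 and of the stellate cell markers 3 of 5, while 4 of 5 hepatocyte markers fell. Their part in the result was not tested.

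**Figure D1:**
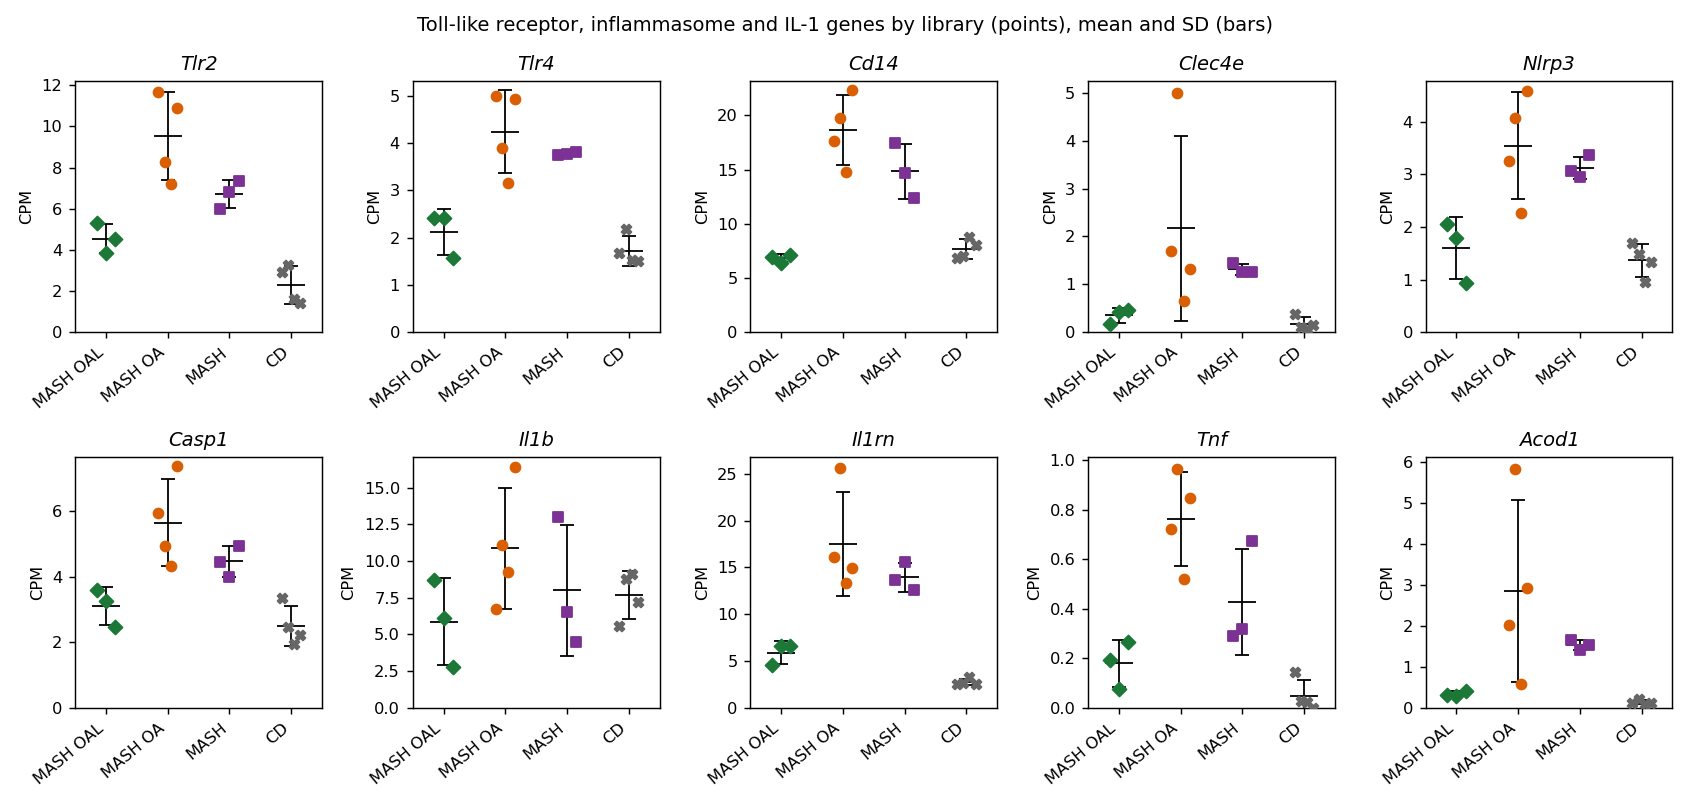
CPM of each of the 10 genes (linear axis starting at 0, 1 panel per gene) in every library of MASH OAL, MASH OA, MASH and CD, with points for libraries and bars for the mean and SD. Il1rn sits between 12.6 and 15.6 CPM in MASH and between 2.56 and 3.30 CPM in CD, while the Il1b points of the groups overlap.

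Among the receptors, Tlr2, which senses bacterial lipoproteins (chr3:83836272-83841767, 3 exon blocks), had 6.00, 6.82 and 7.37 CPM in MASH against 2.91, 3.26, 1.61 and 1.41 CPM in CD. The lowest MASH library was well above the highest CD library, and the log2 fold change was 1.55 ± 0.26 (SE; adjusted p = 0.000732). Tlr4, the receptor for lipopolysaccharide (chr4:66827584-66930284), had 3.75, 3.78 and 3.81 CPM in MASH against 1.67, 2.19, 1.54 and 1.5 CPM in CD. The MASH libraries were nearly equal to each other and above all CD libraries, with a log2 fold change of 1.13 ± 0.20 (adjusted p = 0.00114). Cd14, which hands lipopolysaccharide to Tlr4 (a single exon on chr18:36725067-36726798), had 17.5, 14.6 and 12.4 CPM in MASH against 6.82, 7.03, 8.76 and 8.07 CPM in CD. All MASH libraries were higher, by 0.95 ± 0.15 (adjusted p = 0.000380). Clec4e, also called Mincle, is a C-type lectin that binds mycobacterial glycolipid and a protein released from dead cells (chr6:123281789-123289870). It had 1.45, 1.26 and 1.25 CPM in MASH against 0.374, 0.119, 0.0755 and 0.147 CPM in CD, where the counts were 13, 4, 3 and 5. The groups did not overlap, but the low chow counts leave a wide error: the log2 fold change was 2.88 ± 0.68 (adjusted p = 0.00569).

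The inflammasome sensor Nlrp3 (chr11:59541568-59566956) had 3.06, 2.95 and 3.36 CPM in MASH against 1.70, 1.48, 0.957 and 1.32 CPM in CD. No MASH library fell into the chow range, and the log2 fold change was 1.20 ± 0.29 (adjusted p = 0.00607). The protease gene Casp1 (chr9:5298517-5307265) had 4.45, 4.00 and 4.95 CPM in MASH against 3.37, 2.46, 1.96 and 2.24 CPM in CD. It had the smallest rise of the 9, at 0.84 ± 0.22 (adjusted p = 0.00938).

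Il1b (chr2:129364570-129371139) had 13, 6.52 and 4.46 CPM in MASH against 5.58, 8.77, 9.11 and 7.24 CPM in CD. The MASH libraries spread on both sides of the chow range. The log2 fold change was 0.06 ± 0.41, with a 95% interval of −0.83 to 0.95 (adjusted p = 0.923), so these libraries bound a change in either direction only loosely. An exon of the antisense gene Il1bos overlaps Il1b by 25 bases, and the sources used here do not state whether counting used strand. Il1rn (chr2:24336853-24351494) had 13.7, 15.6 and 12.6 CPM in MASH against 2.56, 2.61, 3.30 and 2.59 CPM in CD. Its means were 13.9 ± 1.51 CPM in MASH (SD, n = 3) and 2.76 ± 0.356 CPM in CD (SD, n = 4), and it had the smallest adjusted p of the 10 genes (1.32e-05, edgeR).

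Tnf, the gene of tumour necrosis factor (chr17:35199381-35202007), had 0.290, 0.320 and 0.675 CPM in MASH against 0.144, 0.0296, 0.0252 and 0 CPM in CD. The CD counts were 5, 1, 1 and 0, so the size of the log2 fold change of 3.05 ± 0.66 (adjusted p = 0.00359) rests on few reads, although the groups did not overlap. Acod1 makes itaconate, a metabolite of activated macrophages (chr14:103046977-103056573). It had 1.66, 1.42 and 1.54 CPM in MASH against 0.115, 0.208, 0.101 and 0.118 CPM in CD, with 4, 7, 4 and 4 counts in CD. It had the largest log2 fold change of the 10 genes, 3.49 ± 0.63 (adjusted p = 0.00112).

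Levels of different genes were compared per kilobase of exon. In MASH livers Cd14 was highest at 8.57 ± 1.47 CPM per kb, ahead of Il1b at 4.20 ± 2.34, Casp1 at 2.99 ± 0.317, Il1rn at 2.52 ± 0.273 and Tlr2 at 2.23 ± 0.228 (SD, n = 3 each). Il1b ran from 2.34 to 6.83 CPM per kb over these libraries, so its place above Casp1, Il1rn and Tlr2 was within its spread. Nlrp3, Tlr4, Acod1, Clec4e and Tnf lay between 0.261 and 0.770 CPM per kb. In CD livers Cd14 at 4.43 ± 0.526 and Il1b at 4.03 ± 0.848 CPM per kb (SD, n = 4 each) were close to each other, and the difference was within their spread. Acod1, Clec4e and Tnf were at 0.0303 to 0.0516 CPM per kb in CD.

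The MASH OAL group was compared with the MASH group to ask what C18:1-leucine did on the diet. Cd14 fell, and it alone of the 10 genes passed the test. It had 6.96, 6.41 and 7.16 CPM in MASH OAL against 17.5, 14.6 and 12.4 CPM in MASH. The MASH OAL libraries were within the chow range or just below it, and the log2 fold change was −1.12 ± 0.16 (adjusted p = 0.0315, edgeR). Across all genes 0.0638% fell by this test, so the comparison made few calls of any kind. The call did not hold without the 2 libraries with disagreeing tags (adjusted p = 0.136), nor without CD replicate 2 (0.0517), MASH replicate 2 (0.0861) or 3 (0.0817), or MASH OAL replicate 1 (0.109) or 2 (0.180), each from the same test. Without MASH OA replicate 2 or 3, libraries that share only the estimate of the spread, 2 and 3 of the 10 genes passed.

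The other 9 genes had log2 fold changes between −2.15 and −0.44 in MASH OAL against MASH. All 10 were below 0, with a median of −1.04 over the 10 genes and −0.01 over all tested genes. For 9 of them, all but Il1b, every MASH OAL library lay below every MASH library, which held for 12% of tested genes. At an unadjusted p under 0.05 there were 7 of the 10 genes and 2836 genes in all. Il1rn had 4.53, 6.61 and 6.57 CPM in MASH OAL against 13.7, 15.6 and 12.6 CPM in MASH. The groups were far apart, at −1.24 ± 0.22 with a 95% interval of −1.72 to −0.76, yet the adjusted p of 0.0550 missed the threshold. Acod1 had 0.322, 0.285 and 0.425 CPM in MASH OAL against 1.66, 1.42 and 1.54 CPM in MASH, a difference of −2.15 ± 0.60 (adjusted p = 0.108). DESeq2 called 5 of the 10 genes lower (Cd14, Il1rn, Acod1, Tlr4 and Nlrp3), where it called 937 genes in all and edgeR 11. On these groups alone edgeR called 3 (Cd14, Il1rn and Acod1), and its calls over all genes were not counted. Without both libraries with disagreeing tags none of the 10 genes passed. The median was then −1.10, all 10 values were below 0, and 9 genes had no overlap, where 16.9% of all tested genes were lower with no overlap between 2 and 3 libraries.

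The macrophage-associated markers summed to 286 to 307 CPM in MASH OAL against 408 to 471 CPM in MASH. These sums did not overlap, and none of the 5 markers passed the test. Of the 9 recruited macrophage markers 1 fell, with sums of 149 to 342 CPM in MASH OAL against 217 to 608 CPM in MASH. No marker of the other lists passed. The T and NK cell markers summed to 2.75 to 4.23 CPM in MASH OAL against 5.14 to 5.79 CPM in MASH, without overlap. The hepatocyte markers summed to 57221 to 77077 CPM in MASH OAL against 50490 to 55893 CPM in MASH, and the erythroid markers to 355 to 674 CPM against 258 to 287 CPM, both without overlap. The part of these cells in the result was not tested.

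C18:1 on the same diet gave the other arm. In MASH OA against MASH none of the 10 genes passed edgeR's test, and none did with DESeq2, which called 2 genes in all. No gene of the 15674 was called by edgeR (0%), and 968 had an unadjusted p under 0.05, among them Cd14. All 10 log2 fold changes were above 0, from 0.17 for Tlr4 to 0.88 for Acod1, and the groups overlapped for every gene, while 2.79% of tested genes were higher with no overlap. The difference was 0.33 for Cd14 with a 95% interval of 0.01 to 0.64 (adjusted p = 0.770), 0.33 for Il1rn with an interval of −0.11 to 0.76, and 0.44 for Il1b with an interval of −0.45 to 1.33. The intervals of Tnf (−0.25 to 1.88) and Acod1 (−0.22 to 1.97) leave room for a large increase. Without both libraries with disagreeing tags none passed either, all 10 values were again above 0, from 0.0810 to 1.01, and the groups overlapped for every gene. No marker of any cell type list passed in this comparison, where edgeR called no gene. Some marker sums still did not overlap. The macrophage-associated markers summed to 480 to 697 CPM in MASH OA against 408 to 471 CPM in MASH. The neutrophil markers (15.4 to 31.2 against 10.9 to 14.8 CPM) and dendritic cell markers (21.1 to 27.4 against 16.9 to 19.9 CPM) were also higher. The hepatocyte markers were lower, at 40129 to 47216 against 50490 to 55893 CPM. Sums of the other lists overlapped, and the part of these cells was not tested.

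**Figure D2:**
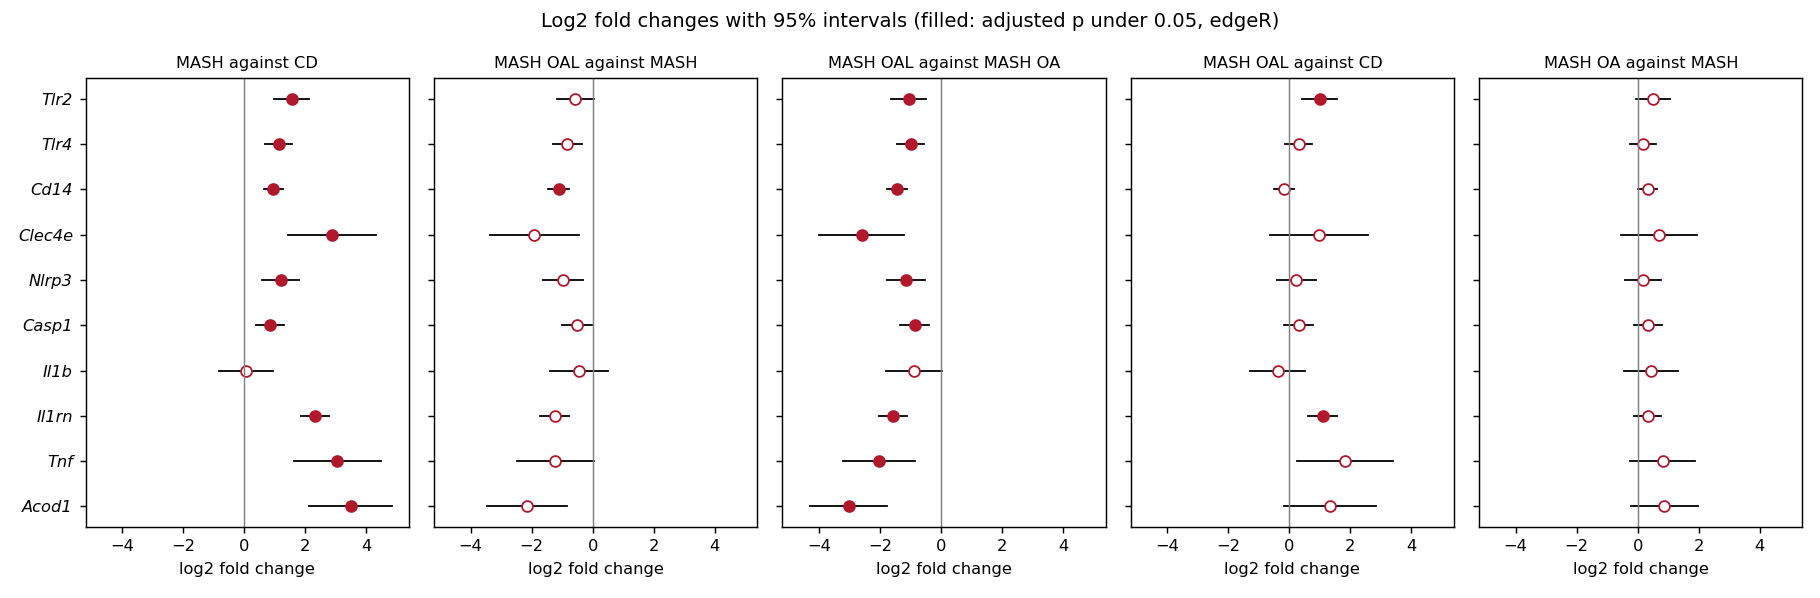
Log2 fold changes of the 10 genes from edgeR (horizontal axis, linear) with 95% intervals as lines, 1 panel per comparison; filled points have an adjusted p under 0.05. Of the 10 genes 9 are filled in MASH against CD and 9 in MASH OAL against MASH OA, 2 in MASH OAL against CD, 1 in MASH OAL against MASH and none in MASH OA against MASH.

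The compounds differ by the leucine coupled to the fatty acid, and MASH OAL was set directly against MASH OA. Of the 10 genes 9 fell, by 0.86 to 3.02 on the log2 scale, and Il1b did not pass. Across all tested genes 8.89% fell. The median was −1.29 over the 10 genes and −0.02 over all tested genes, and for the 9 genes every MASH OAL library lay below every MASH OA library, as for 14.2% of tested genes. The macrophage-associated markers all fell too, and summed to 286 to 307 CPM in MASH OAL against 480 to 697 CPM in MASH OA. Of the recruited macrophage markers 5 of 9 fell, of the Kupffer cell markers 0 of 7, and of the neutrophil markers 1 of 9 that were tested. Of the T and NK cell markers 2 of 7 fell. Of the hepatocyte markers 3 of 5 rose, with sums of 57221 to 77077 CPM in MASH OAL against 40129 to 47216 CPM in MASH OA, and all 4 erythroid markers rose. The part of cell numbers in these values was not tested. These calls depend on the labels. With groups taken from the treatment tags none of the 10 genes passed, and without the 2 libraries concerned Cd14 and Il1rn did. The median of the 10 genes was then −1.45, and every gene, Il1b included, was lower with no overlap, as were 21.2% of all tested genes. How many of all tested genes passed in these fits was not counted, so the lost calls cannot be set beside a share.

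Cd14 had 6.96, 6.41 and 7.16 CPM in MASH OAL against 17.6, 19.8, 14.8 and 22.4 CPM in MASH OA. The gap between the groups exceeded the range within either, and the log2 fold change was −1.44 ± 0.15 (adjusted p = 0.00203). Tlr2 had 5.28, 3.84 and 4.54 CPM in MASH OAL against 11.7, 8.30, 7.19 and 10.9 CPM in MASH OA, a difference of −1.06 ± 0.26 (adjusted p = 0.0176). Tlr4 had 2.41, 2.41 and 1.57 CPM in MASH OAL against 4.99, 3.89, 3.16 and 4.94 CPM in MASH OA, a difference of −1.0 ± 0.21 (adjusted p = 0.00920). Clec4e was the most uneven receptor, with 0.172, 0.415 and 0.470 CPM in MASH OAL against 1.70, 5.0, 0.647 and 1.33 CPM in MASH OA. Its highest library, MASH OA replicate 2, had several times the level of the others of its group, and its difference was −2.60 ± 0.65 (adjusted p = 0.0191).

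Nlrp3 had 2.06, 1.79 and 0.939 CPM in MASH OAL against 3.25, 4.06, 2.26 and 4.59 CPM in MASH OA. The groups came close to each other but did not overlap, at −1.14 ± 0.29 (adjusted p = 0.0197). Casp1 had 3.61, 3.27 and 2.46 CPM in MASH OAL against 5.96, 4.94, 4.33 and 7.39 CPM in MASH OA, a difference of −0.86 ± 0.22 (adjusted p = 0.0195). Il1rn had 4.53, 6.61 and 6.57 CPM in MASH OAL against 16.1, 25.7, 13.4 and 15 CPM in MASH OA. All MASH OA libraries were above all MASH OAL libraries, with a log2 fold change of −1.57 ± 0.21 (adjusted p = 0.00299). Il1b had 8.70, 6.12 and 2.82 CPM in MASH OAL against 6.74, 11.1, 9.22 and 16.4 CPM in MASH OA. These ranges overlapped, and the difference of −0.88 ± 0.42 had an interval of −1.79 to 0.03 (adjusted p = 0.169).

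Tnf had 0.193, 0.0778 and 0.268 CPM in MASH OAL against 0.722, 0.966, 0.521 and 0.848 CPM in MASH OA. The highest MASH OAL library had 12 counts, and the log2 fold change was −2.04 ± 0.55 (adjusted p = 0.0252). Acod1 had 0.322, 0.285 and 0.425 CPM in MASH OAL against 2.03, 5.85, 0.593 and 2.94 CPM in MASH OA. The MASH OA libraries ranged widely, from 33 to 206 counts, and the difference was −3.02 ± 0.59 (adjusted p = 0.00742). Fewer of these calls held when 1 library was left out: 4 without MASH OAL replicate 2 (Tlr4, Cd14, Il1rn and Acod1), 5 without MASH OA replicate 4 and 6 without MASH OA replicate 1. The share of all tested genes called in these fits was not counted.

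Within MASH OA, replicate 3 was the lowest library for 9 of the 10 genes, and replicates 2 and 4 were the highest for 4 genes each. Replicate 2 led for Clec4e, Il1rn, Tnf and Acod1, and its neutrophil markers summed to 31.2 CPM against 15.4 to 16.3 CPM in the other libraries of that group. In MASH OAL, the library with the most neutrophil marker RNA, replicate 1, had the lowest Clec4e and Il1rn of its group. The same library had the highest Tlr2, Nlrp3, Casp1 and Il1b of that group. The order of group means was MASH OA, MASH, MASH OAL, CD from high to low for 8 genes, and MASH OA, MASH, CD, MASH OAL for Cd14 and Il1b.

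MASH OAL livers were also set against CD livers. Tlr2 and Il1rn rose and the other 8 genes did not pass, where 10.2% of all tested genes rose. Il1rn had 4.53, 6.61 and 6.57 CPM in MASH OAL against 2.56, 2.61, 3.30 and 2.59 CPM in CD, a log2 fold change of 1.09 ± 0.22 (adjusted p = 0.00626). Tlr2 had 5.28, 3.84 and 4.54 CPM in MASH OAL against 2.91, 3.26, 1.61 and 1.41 CPM in CD. It was higher by 0.99 ± 0.27 (adjusted p = 0.0267), and the call did not hold without CD replicate 3 (adjusted p = 0.0702) or 4 (0.0569), or MASH OAL replicate 1 (0.0850) or 4 (0.0763). Il1rn, Tlr2 and Acod1 had no overlap between the groups with MASH OAL higher, as had 16.8% of tested genes. Cd14 differed by −0.16 with an interval of −0.49 to 0.16, and Tlr4 by 0.30 with an interval of −0.15 to 0.75. Tnf differed by 1.83 with an interval of 0.25 to 3.40 (adjusted p = 0.108), and passed without CD replicate 1 (3.11; adjusted p = 0.0295). With only these groups in the fit Acod1 passed (adjusted p = 0.0477, edgeR) and Tlr2 did not (0.0594). Without both libraries with disagreeing tags Il1rn alone passed, and with groups from the tags none did. Of the macrophage-associated markers 3 of 5 rose in this comparison, with sums of 286 to 307 CPM in MASH OAL against 120 to 197 CPM in CD. Of the recruited macrophage markers 6 of 9 rose, of the Kupffer cell markers 0 of 7, of the neutrophil and dendritic cell markers 2 each, of the T and NK cell and stellate cell markers 1 each, and 1 of 5 hepatocyte markers fell. Their part in the 2 calls was not tested.

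The comparisons above share libraries: MASH stands in 3 of them and MASH OAL in 3, so their values are given side by side and are not independent of each other.

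In the diet comparison Il1rn passed the test and Il1b did not, which alone does not show that the genes differ from each other. Their ratio was computed per kilobase of exon in each library. The ratio of Il1rn to Il1b was 0.180, 0.372 and 0.802 in MASH OAL, 0.822, 0.797, 0.5 and 0.314 in MASH OA, 0.362, 0.821 and 0.969 in MASH, and 0.159, 0.103, 0.125 and 0.124 in CD. Every library of the 3 diet groups was above all CD libraries, while the diet groups overlapped each other. The mean log2 ratio was higher by 2.39 in MASH than in CD, which is 5.24-fold, and by 1.58 in MASH OAL than in CD, which is 2.99-fold. An exact two-sided permutation test gave p = 0.0571 for both, the smallest value that 35 splits allow, and 0.143 after adjustment over 5 comparisons. The difference was −0.81 for MASH OAL against MASH (p = 0.4 by the same exact permutation test, where 0.1 is the smallest possible), −0.59 for MASH OAL against MASH OA (p = 0.457) and −0.22 for MASH OA against MASH (p = 0.686). Without both libraries with disagreeing tags the difference was 2.12 for MASH OAL against CD, −0.27 for MASH OAL against MASH, 0.13 for MASH OAL against MASH OA and −0.40 for MASH OA against MASH.

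**Figure D3:**
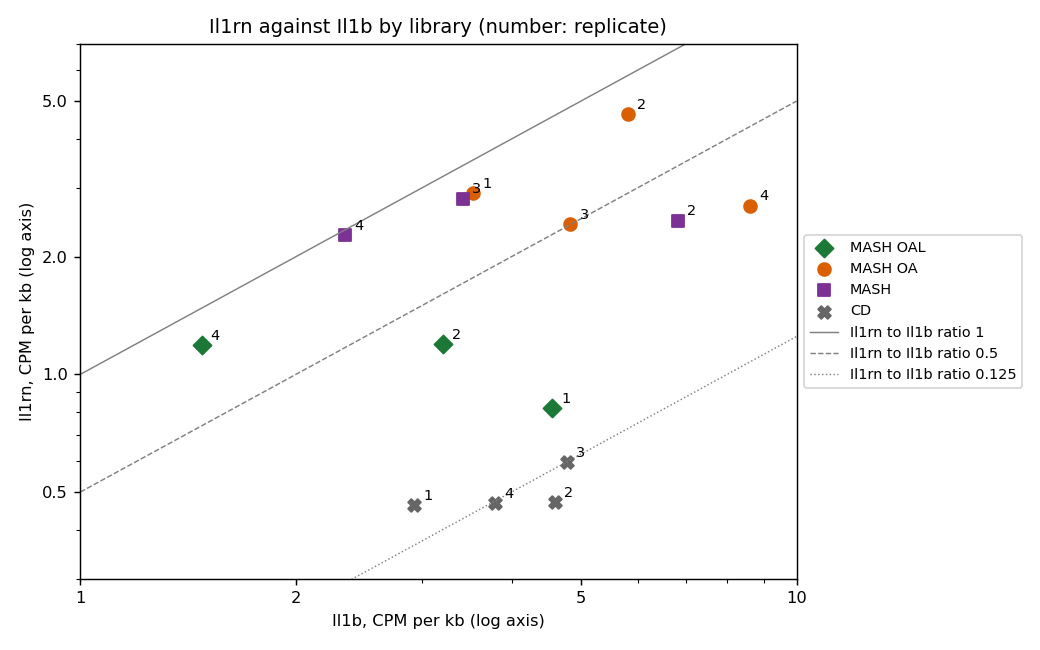
Il1rn (vertical) against Il1b (horizontal) in CPM per kb of exon, both on log axes, 1 point per library with its replicate number; lines mark fixed ratios of Il1rn to Il1b. The libraries of the 3 MASH diet groups lie at ratios between 0.180 and 0.969, and the 4 CD libraries lie below them, near a ratio of 0.125.

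Il1b was set beside the Kupffer cell markers of each library. In MASH OAL the 7 Kupffer cell markers summed to 687, 474 and 207 CPM for Il1b values of 8.70, 6.12 and 2.82 CPM. In MASH they summed to 858, 722 and 559 CPM for Il1b values of 13, 6.52 and 4.46 CPM. The order of the libraries was the same for both measures in these groups. In MASH OA the sums were 579, 855, 487 and 882 CPM for Il1b values of 6.74, 11.1, 9.22 and 16.4 CPM, and in CD 457, 619, 382 and 402 CPM for 5.58, 8.77, 9.11 and 7.24 CPM, where the orders differed. Without the 2 libraries with disagreeing tags the orders were the same in MASH OAL and MASH OA, over 2 and 3 libraries. The match in order was not particular to Kupffer cell markers. The hepatocyte markers followed Il1b too, with 77077.2, 69663 and 57220.9 CPM in MASH OAL. In MASH they had 55892.7, 52307.5 and 50489.6 CPM. The recruited macrophage markers ran in the reverse order in both groups. With 3 libraries in a group, a shared order can easily arise by chance. The part of Kupffer cells or of hepatocytes in the Il1b values was not tested.

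**Figure D4:**
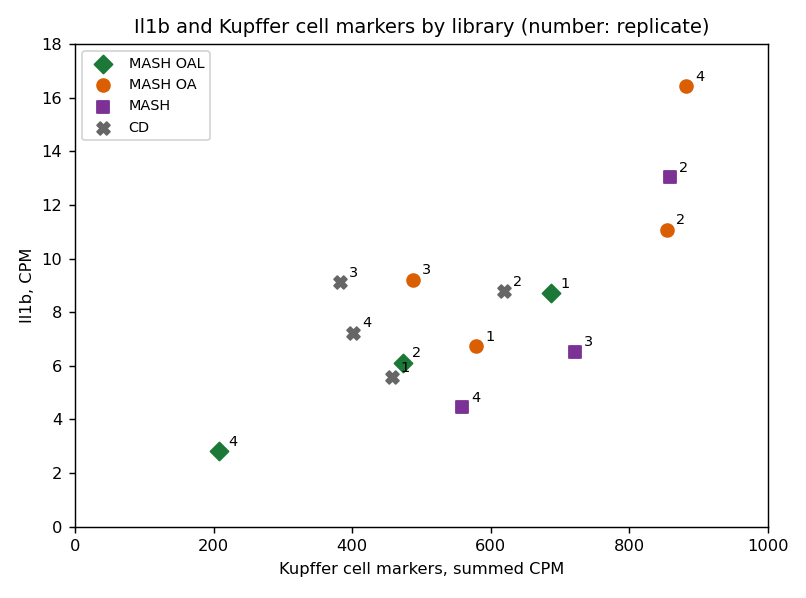
Il1b in CPM (vertical, linear) against the summed CPM of 7 Kupffer cell markers (horizontal, linear), 1 point per library with its replicate number. Both axes start at 0. MASH OAL replicate 4 is lowest on both, at 2.82 CPM of Il1b and 207 CPM of markers, and MASH OA replicate 4 is highest on both, at 16.4 and 882 CPM.

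Each gene was also expressed relative to the mean log2 CPM of the 5 macrophage-associated markers in the same library. On that scale Acod1 was higher in MASH than in CD by 1.64 and Clec4e by 1.24, with no overlap between the groups, which held for 1.38% of tested genes in that direction. Il1b was lower by 1.58, Casp1 by 0.67 and Tlr4 by 0.39 with no overlap, as were 78.7% of all tested genes. Il1rn (0.80), Tnf (0.90), Tlr2 (0.10), Nlrp3 (−0.32) and Cd14 (−0.58) overlapped. With Adgre1 and Csf1r alone as the markers, the values for MASH against CD were 2.00 for Acod1, −0.31 for Casp1, −0.03 for Tlr4, 0.04 for Nlrp3 and 0.46 for Tlr2. Between MASH OAL and MASH, Acod1 (−1.30) and Clec4e (−1.14) were lower with no overlap, as were 0.383% of tested genes, and the other 8 genes overlapped. Between MASH OA and MASH, Tlr4 alone had no overlap, being lower by 0.17, as were 15.4% of tested genes. Between MASH OAL and MASH OA, Casp1 alone had no overlap, being higher by 0.20, as were 72.6% of tested genes. Acod1 (−1.47) and Clec4e (−1.15) overlapped in that comparison. Between MASH OAL and CD, Tlr4, Cd14, Nlrp3, Casp1 and Il1b were lower with no overlap, as were 53.7% of tested genes. With Adgre1 and Csf1r alone the values for MASH OAL against CD were −0.05 for Tlr4, −0.49 for Cd14, −0.16 for Nlrp3 and −0.01 for Casp1. Without the 2 libraries with disagreeing tags Acod1 (−1.16) and Clec4e (−0.64) were still lower in MASH OAL than in MASH with no overlap, as were 0.683% of tested genes, and Cd14 (−0.36) was lower in MASH OAL than in MASH OA with no overlap, as were 0.549%. These values are differences of log2 levels with no test.

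**Figure D5:**
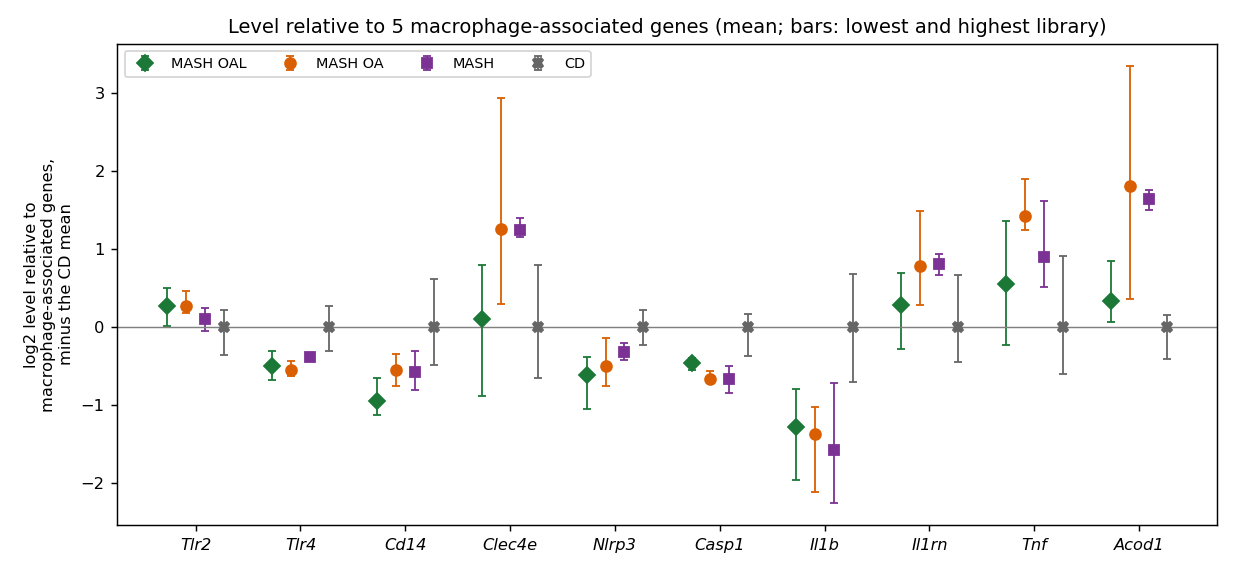
Level of each of the 10 genes relative to 5 macrophage-associated markers (log2 difference, linear axis, with the CD mean of each gene set to 0) in MASH OAL, MASH OA, MASH and CD; points are group means and bars run from the lowest to the highest library. Acod1 and Clec4e lie above CD in MASH by 1.64 and 1.24, and Il1b lies below it by 1.58.

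The genes around the 10 in the same pathways were described through 7 lists, of which 112 genes were tested. In MASH against CD 59 rose and 10 fell, where 20.4% of all tested genes rose and 15.1% fell. Of 14 further Toll-like receptors and co-receptors 11 rose and none fell, with a list median of 1.69 on the log2 scale against 0.01 over all tested genes. Among them were Tlr1, which pairs with Tlr2 (2.43 ± 0.24), Tlr12 (2.12 ± 0.20), the lipid receptor Cd36 (1.82) and Ly86 (1.67). Of 11 genes of the C-type lectin arm 9 rose, including Clec7a, the β-glucan receptor Dectin-1 (3.04 ± 0.24), and the kinase Syk (1.46). Of 16 early response genes of activated macrophages 11 rose and 1 fell. The list is named for macrophages, but whole liver does not show which cells carried these RNAs. The chemokines Ccl3 (3.63) and Cxcl10 (2.17) and the urokinase receptor Plaur (2.67) were among those that rose.

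Of 25 adaptor and kinase genes 7 rose and 2 fell, with a list median of 0.12. The NF-κB subunit genes Relb (1.72 ± 0.22) and Nfkb2 (1.02) and the NF-κB inhibitor Tnfaip3 (1.65 ± 0.21) rose, and Ikbkg, a subunit of the IκB kinase complex, fell by 0.58. Of 21 genes of the inflammasome list 13 rose and 3 fell, with Pycard, the adaptor ASC, at 1.57 ± 0.23 and the ATP receptor P2rx7 at 0.92. Card9, an adaptor of C-type lectin signalling that was counted in this list, rose by 1.64. Of 10 genes of the IL-1 family 3 rose and 2 fell. Il1rap, the accessory chain of the IL-1 receptor, averaged 87.9 ± 6.23 CPM in MASH and 152 ± 14.1 CPM in CD, and fell by 0.79. Il33 (1.46) and Il18bp (1.22), which binds and blocks IL-18, rose. Of 15 genes of TNF and its receptors 5 rose and 2 fell, with Traf1 at 2.25 ± 0.28.

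In MASH OAL against MASH OA 4 of the 112 genes rose and 48 fell, where 7.34% of all tested genes rose and 8.89% fell. The Toll-like receptor list had 7 of 14 lower (Tlr1 −1.44, Cd180 −1.35), the inflammasome list 12 of 21 lower and 2 higher (Card9 −1.12, Nlrc4 −1.11), and the C-type lectin arm 8 of 11 lower (Clec7a −1.51, Syk −1.10). Of the early response genes 9 of 16 fell (Ccl3 −2.26, Cxcl10 −1.69), of the adaptors and kinases 6 of 25 fell and 1 rose (Relb −1.20, Tnfaip3 −1.14), and of the TNF list 5 of 15 fell (Ltb −1.25, Traf1 −1.22). In the IL-1 family Il18bp fell by 0.93 and Il1rap rose. Il1rap averaged 118 ± 10.5 CPM in MASH OAL (SD, n = 3) and 74.4 ± 9.48 CPM in MASH OA (SD, n = 4), a log2 fold change of 0.67 ± 0.11 (adjusted p = 0.00329, edgeR). With groups from the tags none of the 112 genes passed in this comparison, without both libraries 17 did, and without MASH OAL replicate 2 there were 26 calls. For these fits too, calls over all tested genes were not counted.

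None of the 112 genes passed edgeR's test in MASH OAL against MASH or in MASH OA against MASH. DESeq2 called 19 of them in MASH OAL against MASH, where it called 937 genes in all. The list medians in MASH OAL against MASH were between −0.97 for the early response genes and −0.10 for the adaptors and kinases. In MASH OAL against CD 31 genes rose and 3 fell, where 10.2% of all tested genes rose and 4.34% fell. These 34 calls became 19 without MASH OAL replicate 1, 21 without both libraries with disagreeing tags and 8 with groups from the tags. Among those that rose were 8 of the 14 Toll-like receptor genes and 7 of the 11 genes of the C-type lectin arm. Clec7a stood at 1.85 ± 0.24 and Clec12a at 1.27 ± 0.22. Of the 16 early response genes Plaur alone passed, at 1.67 ± 0.26.

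For each of the 10 genes the nearest pattern over the 14 libraries was sought among 13858 named genes, by the root mean square difference of centred log2 CPM values (0 for the same pattern). All patterns share the libraries and the group differences, so the values are a description. The closest matches were Casp1 with Arhgap4 (0.124), Nlrp3 with Cd86, a co-stimulatory molecule of antigen-presenting cells (0.128), Tlr4 with Lgmn, a lysosomal protease (0.141), and Tlr2 with Csf2ra, a chain of the GM-CSF receptor (0.143). Cd14 was nearest to the lipid droplet gene Hilpda (0.272) and Il1rn to Plaur (0.319). Tnf (0.341) and Clec4e (0.554) were both nearest to Ccl3, and Acod1 to Slamf8 (0.547). Il1b was nearest to Disp2 (0.330). The SD of a gene's own centred values was 0.532 for Casp1, 0.615 for Il1b and 0.887 for Tlr2. Small differences come more easily to genes that vary little, and the match of Il1b was much looser than that of Tlr2.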

How the data were processed

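Liver RNA was sequenced in 14 libraries made, per the labels' protocols, with NEBNext Ultra II. The authors deposited expected counts per gene; the submitters' processing notes name HTSeq, GRCm38 and DESeq2 1.42.1 without stating what each was used for. As 5.09% to 5.76% of a library's values were fractional, the expected counts were rounded. Groups came from the sample titles. The authors' deposited comparison tables were not used, since their group letters have no key in the sources used here.

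Genes passing filterByExpr (minimum count 10, minimum total 15, smallest group 3) were fitted over all 14 libraries with edgeR 4.0.16 in R 4.3.3 (TMM, robust quasi-likelihood F test, two-sided). P-values were adjusted by Benjamini and Hochberg over 15674 genes, with a threshold of 0.05. Intervals are 95% intervals of that fit. CPM used TMM-scaled library sizes, with a prior count of 2 on the log2 scale and 0.5 in the ratio of Il1rn to Il1b. Exon lengths and positions came from the GENCODE M21 annotation of GRCm38, and levels relative to macrophage-associated markers are differences of log2 CPM. The fit was tested on simulated data.

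The 10 genes, the 7 lists, the marker lists and the tests were chosen with earlier results of these data known. All 10 genes are named; of each list up to 4 genes a comparison with the smallest p past the threshold could be named, and the 2 nearest genes in pattern. Promoters are of genes called in MASH against CD or MASH OAL against MASH OA, at most 6 in order of p, with none from chromosome 18. Alternatives were relative log expression scaling, DESeq2 1.42.0, no low-count filter, the compared groups alone, a replicate block, groups from treatment tags, both libraries with disagreeing tags left out, each library left out, another prior and other macrophage markers. Pairs of libraries in the same group had a chi-square per degree of freedom of 27.4 to 174, so none was counted as a repeat of another.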

Additional observations from a re-analysis of the deposited data

Results flagged for a closer look

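In 22 sets of 4 libraries of the 10 genes and their ratio, a single library was tested for standing apart from the others of its group, and chance marks about 1 in 20 such sets. There were 2. Il1rn was 3.30 CPM in CD replicate 3, against 2.56 to 2.61 CPM in the other CD libraries. Acod1 was 0.208 CPM in CD replicate 2, from 7 counts, against 0.101 to 0.118 CPM in the other CD libraries, which had 4 counts each. Both values lay far below the lowest MASH library.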

How the results depend on the processing

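For the 10 genes in 5 comparisons, 978 of 1049 alternative values kept their direction and their side of the threshold, 49 lost the call, 12 gained one and 10 reversed. In MASH against CD 9 genes passed in every alternative that was run, and in MASH OA against MASH 0. In MASH OAL against MASH the count of genes called was 1, and became 5 with DESeq2, which called 937 genes in all against 11 by edgeR. It became 3 with the compared groups alone, 2 without the low-count filter, and 0 to 3 with a library left out. With groups from the tags or without both libraries with disagreeing tags it was 0. In MASH OAL against MASH OA it was 9, and became 0 with groups from the tags, 2 without both libraries and 4 to 9 with a library left out. In MASH OAL against CD it was 2, and became 0, 1 and 1 to 3 under the same alternatives. Calls over all tested genes were counted only for the main fit, relative log expression scaling and DESeq2. Of the 112 pathway genes, 34 in MASH OAL against CD became 8 with tag groups and 21 without both libraries (19 to 35 with a library left out), 52 in MASH OAL against MASH OA became 0 and 17 (26 to 53), 0 in MASH OAL against MASH became 19 with DESeq2 and 2 with the replicate block (0 to 1), and 69 in MASH against CD were 57 to 70 with a library left out.

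Replicate numbers were not treated as pairs in the main fit. Of 18 same-numbered pairs 6 had a correlation of deviations over 0.1, in a range of −0.245 to 0.423. Among differently numbered pairs, MASH replicate 4 had 0.498 with MASH OA replicate 1 and −0.515 with MASH OA replicate 2. These values do not decide whether the numbers pair the samples. With the replicate block Il1b in MASH against CD reversed to −0.0383. Other reversed values were Nlrp3 in MASH OAL against CD (−0.00459 with tag groups, −0.00371 without both libraries), and Tlr2 (−0.00934) and Tlr4 (−0.18) in MASH OA against MASH with tag groups. With a library left out, Il1b in MASH against CD ran from −0.49 without MASH replicate 2 to 0.35 and reversed also without CD replicate 1 (−0.07), Il1b in MASH OAL against MASH ran from −0.85 to 0.10 (without MASH replicate 2), Clec4e in MASH OA against MASH from −0.11 (without MASH OA replicate 2) to 1.01, and Nlrp3 in MASH OAL against CD from −0.00467 (without MASH OAL replicate 1) to 0.49. The log2 difference of the Il1rn to Il1b ratio ran, with a library left out, from 2.11 to 2.82 in MASH against CD, 1.04 to 2.12 in MASH OAL against CD, −1.35 to −0.27 in MASH OAL against MASH, −1.13 to −0.05 in MASH OAL against MASH OA and −0.66 to 0.0618 in MASH OA against MASH, and it was 0.13 in MASH OAL against MASH OA without both libraries. Of 50 levels relative to macrophage-associated markers 11 moved by more than the spread with Adgre1 and Csf1r alone. Leaving out both libraries for these levels was an alternative chosen after seeing the data, and moved none by more than the spread. The cause of these shifts was not tested. Counts of 0 to 21 for Tnf, Clec4e and Acod1 in CD and MASH OAL limit their precision.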
